A study of Mus musculus with 19 samples.

Results

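The interleukin and TNF superfamily genes were the secreted cytokines and cell-surface receptors named Il followed by a digit, Tnfsf or Tnfrsf, together with Tnf, Lta and Ltb. The protein-coding rows of the count table with these symbols were taken, leaving out Il1a, Il1b, Il1rn, Il1r1, Il1r2, Il18 and Il33. This gave 112 rows and 110 symbols of 54532 rows, since Il11ra2 was listed 3 times. By role, they were 34 interleukin ligands, 39 interleukin receptors, 15 TNF superfamily ligands, 16 TNF superfamily receptors, 7 decoy receptors or binding proteins, and Il4i1, an amino acid oxidase that shares only the start of its name. The members were measured by bulk RNA-seq of the obstructed kidney of 19 male mice on the C57BL/6J background, aged 8 to 9 weeks. In every mouse, controls included, the left ureter had been tied and cut (unilateral ureteral obstruction, UUO), which brings on tubular injury, inflammation and fibrosis, while the other kidney was intact. The kidneys were taken after perfusion with heparin on day 12. The mice were wild type (WT) or lacked Cd5l (CD5L KO), which encodes a secreted macrophage protein, and were injected into the peritoneum each day with recombinant CD5L (rCD5L, 0.5 mg per mouse) or with PBS. There were 5 WT PBS, 5 WT rCD5L, 4 CD5L KO PBS and 5 CD5L KO rCD5L kidneys, 1 from each mouse.

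Interleukins act through receptors made of shared and private chains. The receptors of IL-6, IL-11 and IL-27 signal through gp130 (Il6st), those of IL-4 and IL-13 through the IL-4 receptor alpha chain (Il4ra), and these chains bind JAK kinases that phosphorylate STAT proteins. TNF superfamily ligands are trimers that bring together receptors, some with a death domain (Tnfrsf1a, Tnfrsf21, Tnfrsf10b) and others, such as Tnfrsf1b and Tnfrsf11a, that act through TRAF adaptors. In the kidney, infiltrating leukocytes and injured tubules are both known to make members of these families.

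Kidneys had 17917491 to 23847090 counts in total, of which the members took from 0.131% to 0.247%. Cd5l had 0 counts in each CD5L KO kidney and 3 to 15 counts in WT kidneys. Replicate 4 of the CD5L KO rCD5L kidneys stood apart. Its members took 0.131% of the counts, against 0.217% to 0.226% in the other 4 kidneys of its group, and 54 of 73 members tested in each comparison were at their lowest of the group there. The summed level of 8 proximal tubule markers was 13916 CPM in that kidney and 1005 to 2410 CPM in the other kidneys, and that of 10 macrophage markers was 839 against 2017 to 3253 CPM. Replicate 3 of the same group was above the other 18 kidneys in Tnfrsf12a, Tnfrsf1a, Il17rc and Il34, and below them in Il13ra1 and Tnfsf10. For that group, values without replicate 4 stand beside the main results. None of the 5 podocyte markers was at 0 in any group, and their sum was 380 to 697 CPM.

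Levels were compared between members as FPKM, which the authors divided by gene length. Receptors were the most abundant members. Of the 112 rows, 55 had a median FPKM of at least 1 over the 19 kidneys and 15 of at least 10. The median over the rows of a role was 2.52 FPKM for interleukin receptors, 1.92 for TNF superfamily receptors, 1.36 for decoys and binding proteins, 0.912 for TNF superfamily ligands and 0.0601 for interleukin ligands. Most interleukin ligands were thus scarce in whole tissue, and 23 of the 34 passed the filter on low counts in no comparison. Il3, Il9, Il20 and Il31 had no count in any kidney, where a count of 0 allows up to 3 counts, that is 0.126 to 0.167 CPM, and 13 of the 34 interleukin ligands had counts in fewer than 10 kidneys. Of the 112 rows, 73 were tested in each of the 4 pairwise comparisons, 36 in none, and Lta, Il12rb2 and Il31ra in some. The filter asks for counts in as many kidneys as the smaller group holds, so that a scarce gene can pass through the group where it is higher.

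Tnfrsf1a, the widely expressed TNF receptor with a death domain, had the highest median (54.8 FPKM, 41.4 to 85.6). It was followed by Tnfrsf12a (Fn14, the TWEAK receptor, 52.5, 42.1 to 110.4), Tnfrsf21 (death receptor 6, 52.4, 39.2 to 92.2) and Il34, another ligand of the CSF1 receptor and the most abundant ligand (47.1, 26.3 to 72.6). The ranges of these 4 genes overlapped, so their order was not resolved by the spread between kidneys. The next were Il6st (27.7, 21.1 to 33.9) and Il13ra1, a receptor chain for IL-13 (26.1, 15.5 to 29.0). Below them came Tnfrsf1b, the TNF receptor of leukocytes and endothelium (15.9, 3.77 to 18.7), Il4ra (13.1, 8.07 to 17.6), Il17rc, an IL-17 receptor chain (12.3, 10.2 to 20.8), and Tnfsf10 (TRAIL, 11.8, 7.76 to 14.6). Il11ra1, the IL-11 receptor (11.3, 10.1 to 19.04), and Il10ra, the ligand-binding IL-10 receptor chain (11.2, 3.05 to 15.9), closed the leading 12. Il11ra1 has near-identical copies (Il11ra2) and overlaps other genes, so its reads may have been split or shared. Il34 also overlaps another gene, so its level is uncertain in the same way. Tnfsf12 (TWEAK), named here as the ligand of the abundant Tnfrsf12a after its value was seen, had a median of 10.4 FPKM and overlaps Tnfsfm13. Tnf itself was at 1.44 FPKM (0.470 to 2.50) and Il6 at 0.304 (0.162 to 0.818), far below Tnfrsf1a and Il6st, chains of their receptors. The plot of levels by member shows this order and the spread behind it.

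**Figure D1:**
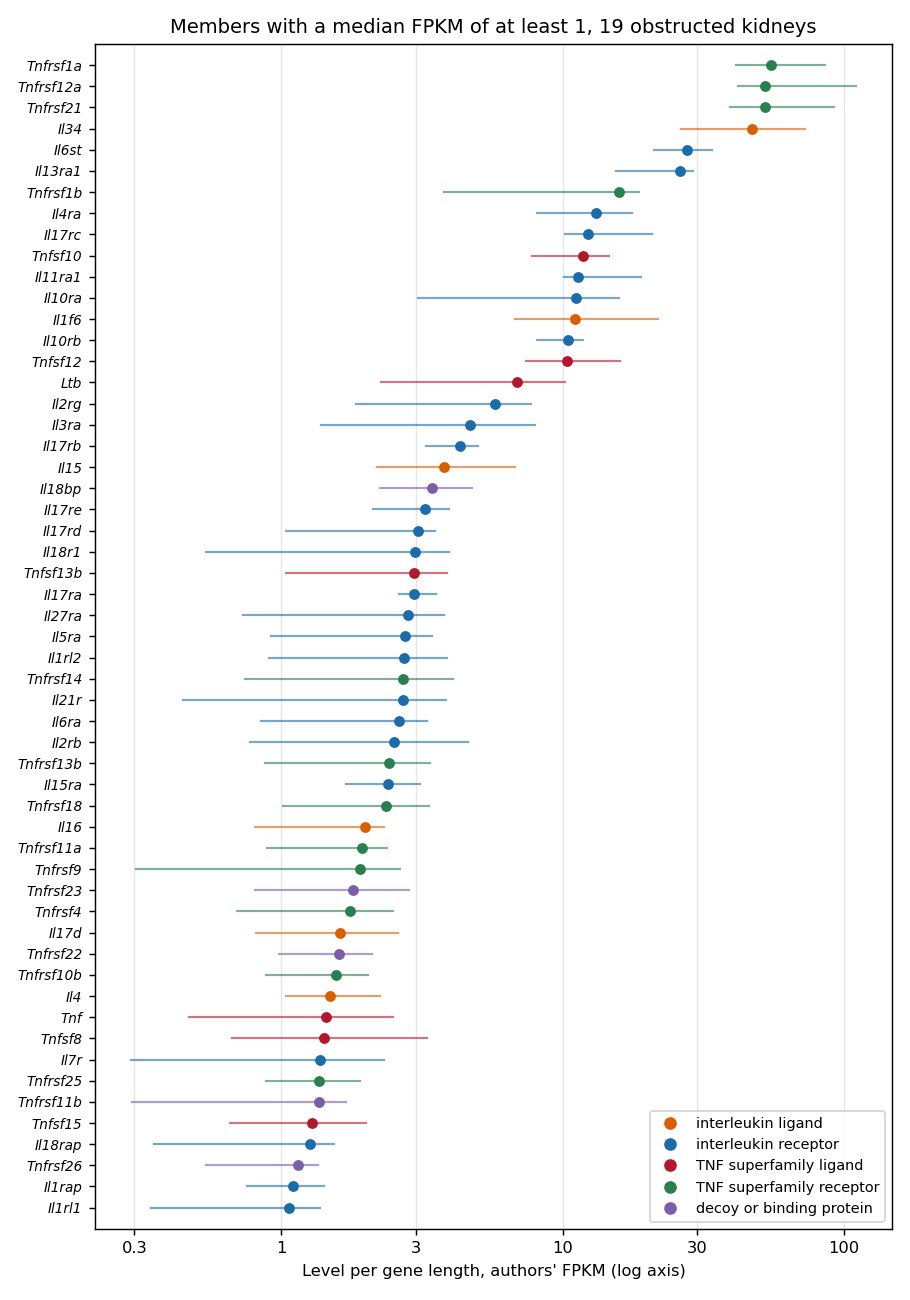
FPKM of each member with a median of at least 1 over the 19 kidneys, on a log axis, coloured by role. Points are medians and lines run from the lowest to the highest kidney. The 4 leading members (Tnfrsf1a, Tnfrsf12a, Tnfrsf21 and Il34) had medians from 47.1 to 54.8 FPKM with overlapping ranges.

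Lack of CD5L was examined first in the kidneys given PBS. Here edgeR called 5 members, all lower in CD5L KO kidneys. They were Il6st, Il4ra, Tnfrsf1b, Tnfrsf11a (RANK, the receptor of RANKL) and Tnfsf8 (CD30 ligand), and each fell by between 19.8% and 33.7%. Of the 112 rows, 76 passed the filter on low counts and entered edgeR's quasi-likelihood test, in which p-values were adjusted (Benjamini-Hochberg) over all 17579 genes. The members called were 6.58% of those tested, where 10.5% of all genes tested were called, 5.4% as lower and 5.13% as higher. At an unadjusted p under 0.05, 13 members (17.1%) passed, where 26.6% of all genes did. These were 9 lower members (11.8%, against 14.0%) and 4 higher ones (5.26%, against 12.6%), Il15, Il1rl1, Il5ra and Il7. The share of members called was thus below that of all genes. The 5 calls of edgeR were all lower, but higher members were called in 3 of the alternative fits, 1 in each (Il5ra by DESeq2, Ltb without replicate 1 and Il7 without replicate 5 of the WT PBS mice, named after their values were seen).

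Il6st (ENSMUSG00000021756, GRCm38 chr13:112464070-112510086, plus strand) had 387, 405, 360.0, 421 and 435 CPM in the WT PBS kidneys. In the CD5L KO PBS kidneys it had 300.1, 308, 310.2 and 319 CPM. All 4 CD5L KO kidneys lay below all 5 WT kidneys, and they differed little among themselves. Its mean was 309 ± 7.62 CPM (SD, n = 4) against 401 ± 29.4 (SD, n = 5), a log2 fold change of -0.38 (SE 0.06, adjusted p = 0.00591, edgeR).

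Il4ra (ENSMUSG00000030748, chr7:125552120-125579474, plus strand) had 104, 119, 94.4, 114 and 96.6 CPM in the WT PBS kidneys and 87.0, 81.9, 84.0 and 87.5 CPM in the CD5L KO PBS kidneys. Again the groups did not overlap. The means were 106 ± 10.7 and 85.1 ± 2.62 CPM, a log2 fold change of -0.32 (SE 0.07, adjusted p = 0.0169, edgeR). The call was lost without replicate 2 of the CD5L KO PBS mice (-0.30, adjusted p = 0.0505).

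Tnfrsf1b (ENSMUSG00000028599, chr4:145213463-145246870, minus strand) had 74.4, 77.8, 65.8, 86.8 and 75.4 CPM in WT PBS kidneys. In CD5L KO PBS kidneys it had 65.9, 58.6, 53.3 and 65.2 CPM, so that its highest CD5L KO kidney just overlapped the lowest WT kidney. The log2 fold change was -0.33 (SE 0.09, adjusted p = 0.0296, edgeR). The call was lost in 5 of the 9 fits that left out 1 kidney, namely those without replicate 2 or 3 of the CD5L KO mice or replicate 2, 4 or 5 of the WT mice (log2 fold changes from -0.33 to -0.27, adjusted p from 0.0553 to 0.0803). Tnfrsf1a, which binds the same ligand, was at 176 ± 11.9 and 162 ± 10.05 CPM, a log2 fold change of -0.12 (SE 0.06, adjusted p = 0.251).

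Tnfrsf11a (ENSMUSG00000026321, chr1:105780718-105847981, plus strand) had 14.4, 16.3, 13.7, 15.7 and 15.3 CPM in WT PBS kidneys and 13.6, 11.26, 10.9 and 11.6 CPM in CD5L KO PBS kidneys. The groups did not overlap, by a narrow margin for replicate 1 of the CD5L KO mice. Its log2 fold change was -0.35 (SE 0.09, adjusted p = 0.0326, edgeR), and the call was lost in 6 of the 9 fits without 1 kidney, all but those without replicate 1 of the CD5L KO or replicate 1 or 3 of the WT mice (adjusted p from 0.0653 to 0.0873). Tnfsf8 (ENSMUSG00000028362, chr4:63831308-63861347, minus strand) is a ligand made by activated lymphocytes and macrophages. It had 6.01, 8.25, 6.48, 10.1 and 9.22 CPM in WT PBS kidneys and 6.33, 5.26, 5.02 and 4.63 CPM in CD5L KO PBS kidneys. These groups overlapped, and the log2 fold change of -0.59 (SE 0.17, adjusted p = 0.0475, edgeR) was close to the threshold. It was past the threshold only without replicate 1 or 3 of the WT mice when 1 kidney was left out, and the adjusted p was 0.0527 to 0.120 in the other 7 fits.

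**Figure D2:**
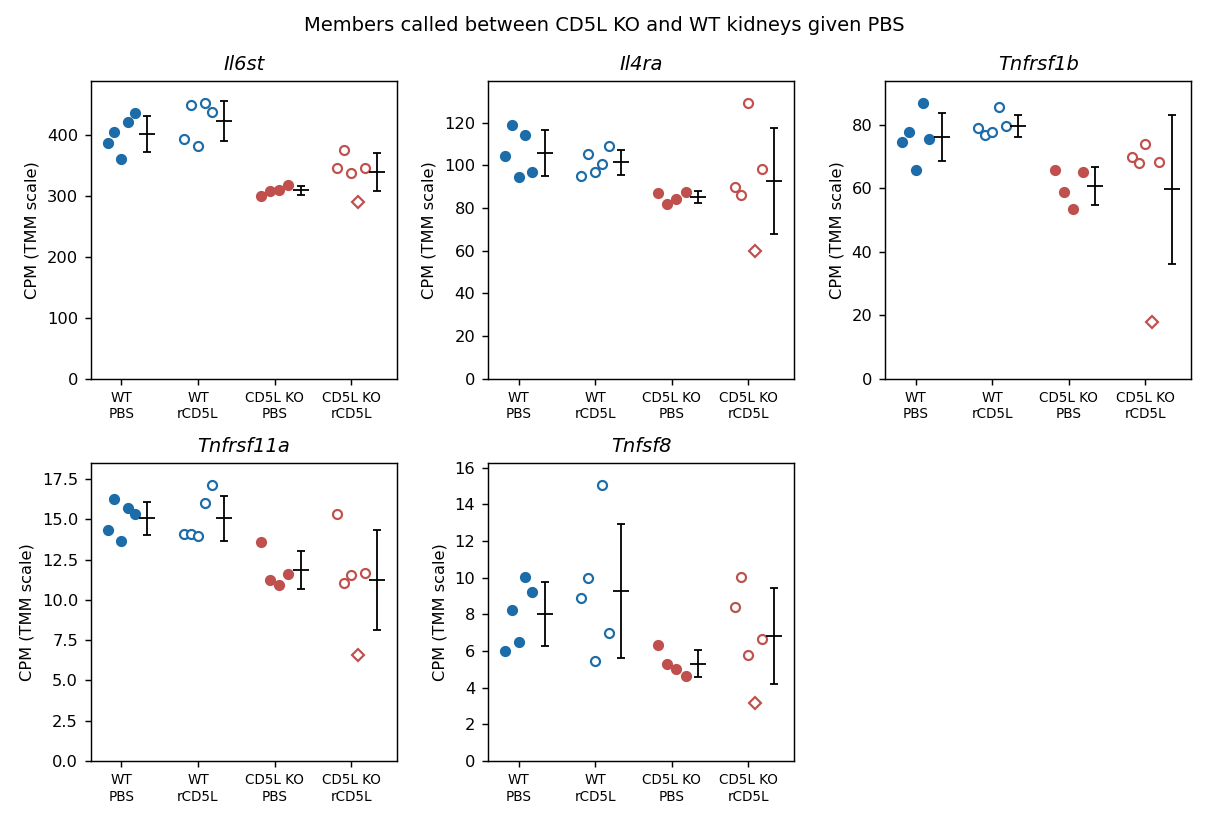
CPM (TMM scale over the 19 kidneys) of the 5 members that fell in CD5L KO PBS kidneys, each point 1 kidney, filled for PBS and open for rCD5L, with the mean and SD beside each group. The diamond is replicate 4 of the CD5L KO rCD5L mice. All CD5L KO PBS kidneys lie below all WT PBS kidneys for Il6st, Il4ra and Tnfrsf11a.

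The 250 bases before the RefSeq start of each of these genes (GRCm38.p6) are shown because the genes fell together, with matches to 5 motifs in capitals. The motifs were searched on both strands. A STAT site was TTCNNNGAA and a GC box was GGGCGG, which is a binding sequence of Sp1 in many promoters. The TATA box was read as TATAAA. An AP-1 site was TGANTCA, and a kappaB site was searched by its usual consensus. Each sequence is written 5′ to 3′ on the strand of its gene.
Il6st: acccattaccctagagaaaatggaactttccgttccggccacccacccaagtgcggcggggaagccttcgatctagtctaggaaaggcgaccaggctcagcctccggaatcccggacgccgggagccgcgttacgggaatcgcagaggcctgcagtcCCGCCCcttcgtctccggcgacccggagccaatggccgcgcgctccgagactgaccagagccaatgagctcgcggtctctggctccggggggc
Il4ra: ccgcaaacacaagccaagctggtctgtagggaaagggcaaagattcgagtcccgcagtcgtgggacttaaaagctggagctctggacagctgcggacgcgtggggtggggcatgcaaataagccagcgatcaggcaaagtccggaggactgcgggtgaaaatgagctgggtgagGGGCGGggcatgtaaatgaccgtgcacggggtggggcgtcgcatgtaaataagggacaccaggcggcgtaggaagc
Tnfrsf1b: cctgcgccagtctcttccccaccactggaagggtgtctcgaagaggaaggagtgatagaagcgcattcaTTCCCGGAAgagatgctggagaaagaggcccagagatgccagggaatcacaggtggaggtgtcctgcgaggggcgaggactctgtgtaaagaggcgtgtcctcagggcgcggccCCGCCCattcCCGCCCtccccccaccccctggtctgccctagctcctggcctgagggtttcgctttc
Tnfrsf11a: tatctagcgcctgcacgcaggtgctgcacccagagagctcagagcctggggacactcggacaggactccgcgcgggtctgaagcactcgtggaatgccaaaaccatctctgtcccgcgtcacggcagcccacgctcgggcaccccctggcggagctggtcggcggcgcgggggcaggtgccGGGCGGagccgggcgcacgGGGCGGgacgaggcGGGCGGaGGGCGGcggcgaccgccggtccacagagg
Tnfsf8: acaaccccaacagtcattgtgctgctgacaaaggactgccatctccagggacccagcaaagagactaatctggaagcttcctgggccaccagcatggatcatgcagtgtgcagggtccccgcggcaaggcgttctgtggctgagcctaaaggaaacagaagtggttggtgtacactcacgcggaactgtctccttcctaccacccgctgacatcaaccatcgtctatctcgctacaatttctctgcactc
The windows are chr13:112463820-112464069 (plus) for Il6st, chr7:125552021-125552270 (plus) for Il4ra, chr4:145246871-145247120 (minus) for Tnfrsf1b, chr1:105780473-105780722 (plus) for Tnfrsf11a and chr4:63861285-63861534 (minus) for Tnfsf8. The RefSeq start of Il4ra lay 151 bases from the start given in the count table.

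The GC box was found in 4 of these 5 promoters. It occurred once in Il6st and Il4ra, 2 times in Tnfrsf1b and 4 times in Tnfrsf11a, and 32.7% of 32851 promoters of this length held it. A STAT site was found in Tnfrsf1b only, from 181 to 173 bases before the start, and 7.02% of all promoters held one. Tnfsf8 held none of the 5 motifs. Over the 101 promoters found for 86 of the 110 member symbols, 13.9% held a STAT site, 16.8% an AP-1 site (6.75% of all promoters), 31.7% a GC box, 13.9% a TATA box (12.4%) and 6.93% a kappaB site (3.90%). A match describes the letters of the window and says nothing of binding.

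The tested members are given by role, with no test between roles. Of 32 interleukin receptors tested, 22 were lower and 2 were called, with a median log2 fold change of -0.15, where the median of all genes tested was -0.00 and that of the 76 members -0.06. In all, 33 members were higher (43.4%, against 49.3% of all genes). Of 15 TNF superfamily receptors, 8 were lower, 7 were higher and 2 were called (median -0.05). The 13 TNF superfamily ligands had a median of 0.04 with 1 called, the 11 interleukin ligands one of 0.03 with none called, and the 5 decoys and binding proteins one of -0.00 with none called. Among families, 6 of the 7 tested genes of the gp130 type were lower, with a median of -0.38 and Il6st alone called, and 9 of 11 of the common gamma chain type were lower, with a median of -0.15 and Il4ra alone called. Of 9 genes of the TNF and lymphotoxin type 5 were lower (median -0.12), and of 8 of the TRAIL and RANKL type 5 were lower (median -0.10), with 1 called in each. The IL-17 type (4 of 6 lower, median -0.15), the IL-1 type (5 of 7 higher, median 0.10) and the TWEAK, APRIL and BAFF type (5 of 7 higher, median 0.04) had none called. Il27ra, the IL-27 receptor, was just outside the threshold (log2 fold change -0.38, SE 0.12, adjusted p = 0.0547).

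Among members not called, Il1rl1 (ST2, the IL-33 receptor) had no overlap in the other direction. It had 7.56, 8.04, 6.29, 6.40 and 8.02 CPM in WT PBS kidneys and 9.09, 9.56, 8.11 and 9.21 CPM in CD5L KO PBS kidneys (log2 fold change 0.30, SE 0.12, adjusted p = 0.123, edgeR). In all, 4 members (5.26%) did not overlap between the groups, where 14.1% of all genes tested did not. Of these, 1 was higher (1.32%, against 7.26%) and 3 were lower (3.95%, against 6.84%). Tnf was not called (log2 fold change 0.00, interval of 2 SE on each side, -0.35 to 0.36), nor were Il34 (0.03, -0.13 to 0.19) or Tnfrsf21 (-0.05, -0.29 to 0.18). Values of other abundant members follow. Il13ra1 was at 122 ± 3.71 CPM in CD5L KO and 117 ± 3.85 CPM in WT kidneys, and Il17rc at 40.5 ± 4.35 and 39.9 ± 3.63 CPM (adjusted p = 0.489 and 0.948). Il11ra1 was at 67.4 ± 4.46 and 63.7 ± 4.41 CPM, and Il10ra at 45.7 ± 9.71 and 51.3 ± 3.56 CPM (adjusted p = 0.506 and 0.388). None of these was called. Il6 had 0.929, 2.44, 0.667, 1.13 and 0.927 CPM in WT PBS and 0.995, 0.565, 0.913 and 0.781 CPM in CD5L KO PBS kidneys, from 10 to 58 counts per kidney over the series. Replicate 2 of the WT PBS kidneys was far above the rest, and the log2 fold change was -0.60 (interval -1.36 to 0.17), or -0.17 without that kidney (adjusted p = 0.776).

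Genes of these pathways under other symbols were counted from 4 lists, which were not tested as sets. Over all genes tested in CD5L KO against WT kidneys given PBS, 10.5% were called, 5.4% as lower, and 49.3% were higher. Of 15 tested cytokines and receptor subunits that pair with members, 14 were lower and 3 were called, with a median log2 fold change of -0.25. These were Osmr (-0.39, SE 0.07, adjusted p = 0.00687), the oncostatin M receptor that signals with gp130, Csf1r (-0.47, SE 0.13, adjusted p = 0.0386), the receptor of IL-34, and Cntfr (-0.69, SE 0.20, adjusted p = 0.0424), the ciliary neurotrophic factor receptor. Of 16 JAK, STAT and SOCS genes, 11 were lower (median -0.10) and 4 were called, all lower, namely Stat3 (-0.36, adjusted p = 0.00866), Jak3 (-0.29, adjusted p = 0.0112), Stat6 (-0.21, adjusted p = 0.0235) and Stat5b (-0.18, adjusted p = 0.0339). Stat3 is the main mediator of gp130, Jak3 binds the common gamma chain and Stat6 acts downstream of Il4ra. Of 14 TNF receptor adaptors and regulators, 7 were higher and 7 lower (median 0.01), and Traf6 alone was called (-0.33, adjusted p = 0.0112). Of 10 tested TNF superfamily genes under other symbols, 8 were higher (median 0.06) and none was called.

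Markers of other cells moved with the same comparison. The summed level of 8 fibroblast and myofibroblast markers was 3156 to 4340 CPM in CD5L KO PBS kidneys and 4505 to 6798 CPM in WT PBS kidneys, with 6 of the 8 called lower. That of 6 endothelial markers was 596 to 667 against 716 to 794 CPM, with 3 called lower, and that of 6 injured tubule markers was 25984 to 32408 against 18135 to 24519 CPM, with 1 called higher. The macrophage sum overlapped (2017 to 3253 against 2249 to 2936 CPM), with 2 of 10 called lower, and the T cell sum did too (51.2 to 89.5 against 49.9 to 103 CPM). The mast cell and basophil sum was 42.5 to 48.2 against 50.0 to 60.2 CPM (4 of 5 tested markers higher and none of these called, with Kit alone lower and called), and the urothelium sum was 186 to 315 against 25.3 to 182 CPM (6 of 6 higher, none called). The podocyte sum was 518 to 599 against 583 to 685 CPM (5 of 5 lower, 1 called). Of the markers of these lists, 1 of mast cells and basophils was at 0 in CD5L KO PBS kidneys. The part of these markers in the falls of the members was not tested. In bulk tissue, fewer cells of a type and less RNA per cell cannot be told apart. None of the 5 calls held when the 19 kidneys were fitted together (12 of 18454 genes called, 0.065%), and Il6st and Tnfrsf1b held when replicate 4 of the CD5L KO rCD5L mice was left out of that fit (742 of 18420 genes, 4.03%). Without replicate 2 of the CD5L KO PBS mice 1 member was called, Il6st (1.32%, against 6.83% of all genes), and DESeq2 called 7 members (11.5%, against 17.8%). These were the 5, Il27ra (log2 fold change -0.38, adjusted p = 0.0197) and, in the other direction, Il5ra, the IL-5 receptor alpha chain (0.37, adjusted p = 0.0468, against 0.0924 in edgeR).

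rCD5L in WT mice was examined next. No member was called at an adjusted p under 0.05, of 75 tested, nor was any of 17455 genes (0.0%). At an unadjusted p under 0.05, 11 members passed (14.7%, against 16.0% of all genes). Of these, 8 were higher (10.7%, against 8.31%) and 3 were lower (4.0%, against 7.71%). DESeq2 called 1 member, Tnfrsf12a, where it called 3.82% of all genes. Of the 75 members, 48 were higher (64.0%, against 51.3% of all genes), with a median log2 fold change of 0.06 against 0.00. TNF superfamily ligands (9 of 12 higher, median 0.10), TNF superfamily receptors (11 of 15, median 0.06) and interleukin receptors (22 of 32, median 0.06) leaned higher. Interleukin ligands did not (5 of 11 higher, median -0.03), nor did decoys and binding proteins (1 of 5 higher, median -0.04). All 7 tested genes of the IL-1 type were higher, with a median of 0.10, and none was called.

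Tnf (ENSMUSG00000024401, chr17:35199381-35202007, minus strand) had 2.87, 3.03, 2.81, 2.80 and 2.83 CPM in WT PBS kidneys. In WT rCD5L kidneys it had 3.62, 4.40, 3.76, 4.92 and 3.91 CPM. The lowest rCD5L kidney was above the highest PBS kidney, but the log2 fold change of 0.53 (SE 0.14) had an adjusted p of 0.119 (edgeR, unadjusted p = 0.00177). The reads behind it were few, from 13 to 99 counts per kidney over the series. Tnfrsf12a (ENSMUSG00000023905, chr17:23675445-23677468, minus strand) went the other way, with 128, 121, 135, 123 and 134 CPM in WT PBS kidneys and 98.8, 120.2, 106, 114 and 110.5 CPM in WT rCD5L kidneys. The groups did not overlap (log2 fold change -0.21, SE 0.06, adjusted p = 0.121 in edgeR and 0.0211 in DESeq2).

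Il1rl1 was again higher without overlap, at 8.87, 8.49, 9.28, 8.99 and 10.3 CPM in WT rCD5L kidneys (log2 fold change 0.35, SE 0.11, adjusted p = 0.144). Only Tnf, Tnfrsf12a and Il1rl1 did not overlap between the groups (4.0%, against 3.58% of all genes), 2 of them above (2.67%, against 1.47%) and 1 below (1.33%, against 2.11%). Tnfrsf11a and Tnfsf8, which fell in CD5L KO PBS kidneys, were not called with rCD5L in WT mice. The other members that fell in CD5L KO PBS kidneys had these values in WT mice given rCD5L. Il6st had 393, 449, 382, 452 and 437 CPM (log2 fold change 0.09, interval -0.04 to 0.21), Il4ra one of -0.05 (-0.18 to 0.09) and Tnfrsf1b one of 0.08 (-0.05 to 0.21). For the JAK, STAT and SOCS genes, 15 of 16 were higher, against 51.3% of all genes, and none was called. An unadjusted p under 0.05 (edgeR) was found for 8 of these 16, against 16.0% of all genes. The T cell marker sum was 66.8 to 119 CPM with rCD5L and 49.9 to 103 CPM with PBS, with 13 of 14 markers higher and none called. Of proximal tubule markers 8 of 8 were lower (median log2 fold change -0.38, 4 with an unadjusted p under 0.05), with sums of 1005 to 1552 and 1152 to 2410 CPM. Of urothelium markers 6 of 6 were lower (median -0.22) and of neutrophil markers 6 of 7 (median -0.61). None of these was called, and the part of these markers in the difference in Tnf was not tested.

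**Figure D3:**
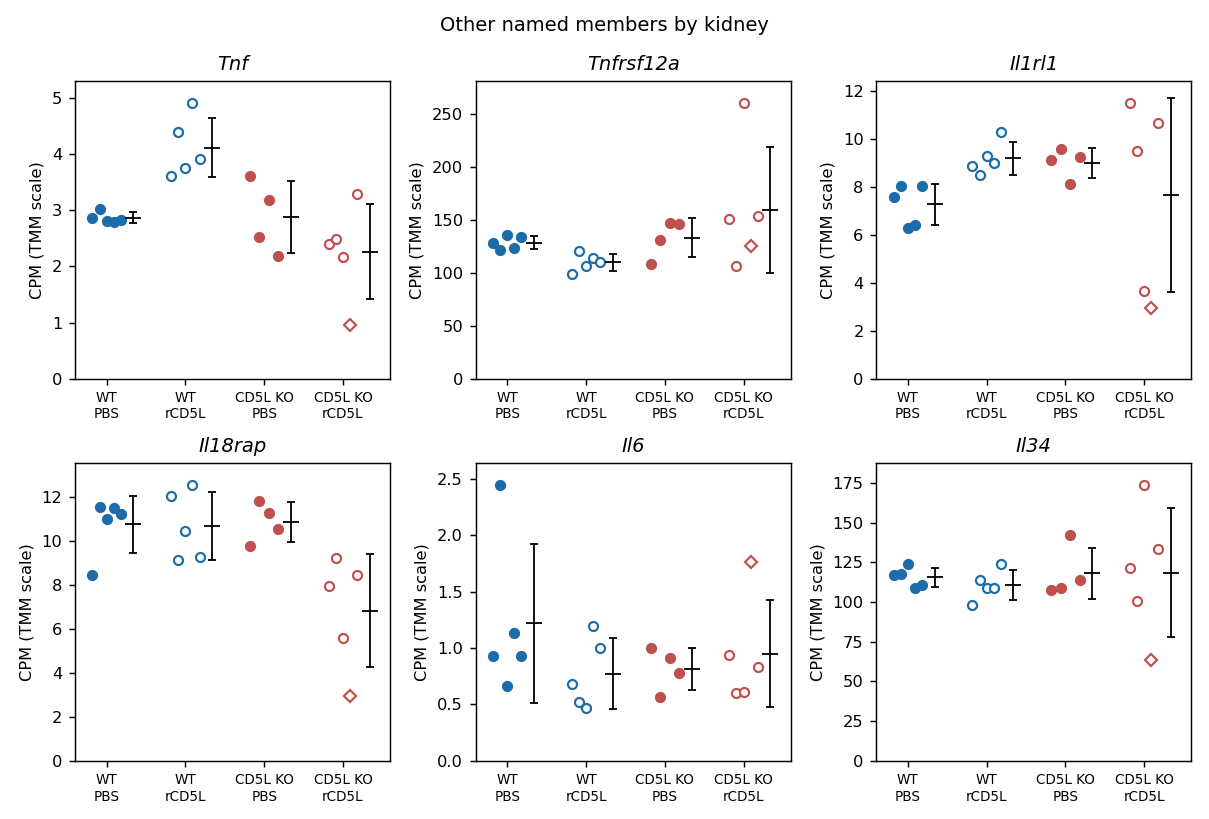
CPM (TMM scale) of Tnf, Tnfrsf12a, Il1rl1, Il18rap, Il6 and Il34 by kidney, filled for PBS and open for rCD5L, with the mean and SD beside each group and a diamond for replicate 4 of the CD5L KO rCD5L mice. The 5 WT rCD5L kidneys had 3.62 CPM of Tnf or more and the 5 WT PBS kidneys 3.03 CPM or less.

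In CD5L KO mice, rCD5L was compared with PBS. No member was called of 74 tested, nor was any of 17467 genes (0.0%), and DESeq2 called no member and 3 genes (0.00973%). At an unadjusted p under 0.05, 1 member passed, with a lower value (1.35%, against 2.87% of all genes in either direction and 1.47% lower), and no higher one did (against 1.4%). The median log2 fold change of the 74 members was -0.07 with 29 higher (39.2%, against 53.5% of all genes). Without replicate 4 it was 0.05 with 42 higher, so its sign changed with that kidney. There, 4 members had an unadjusted p under 0.05 (Il17d, Il18rap, Il27ra and Tnfsf8), or 5.41% against 5.54% of all genes. Without replicates 3 and 4, the median was 0.05, 7 members passed at an unadjusted p under 0.05 (9.46%, against 9.76% of all genes), and none was called.

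Il18rap, the accessory chain of the IL-18 receptor (ENSMUSG00000026068, chr1:40515362-40551705, plus strand), was the 1 member whose kidneys did not overlap (1.35%, against 2.34% of all genes). Of all genes, 1.35% were lower and 0.99% higher without overlap. Il18rap had 9.77, 11.8, 11.3 and 10.5 CPM in CD5L KO PBS kidneys and 7.92, 9.22, 5.57, 2.93 and 8.44 CPM in CD5L KO rCD5L kidneys. Each of the 5 kidneys given rCD5L was below the 4 given PBS, and the lowest was replicate 4. The log2 fold change was -0.65 (SE 0.28, adjusted p = 0.897, edgeR), -0.47 without replicate 4 (adjusted p = 0.763) and -0.34 without replicates 3 and 4 (adjusted p = 0.442). Without replicate 4, another 4 members did not overlap, all of them higher with rCD5L (5.41%, against 2.35% of all genes). They were Il12rb1, Il27ra, Il6st and Tnfrsf1b, named after their values were seen.

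The 5 members that fell in CD5L KO PBS kidneys were not called with rCD5L. Il6st had 345, 375, 337, 290.2 and 347 CPM in CD5L KO rCD5L kidneys, of which all but replicate 4 were above the 4 given PBS. Its log2 fold change was 0.15 (SE 0.12, adjusted p = 0.897), or 0.19 without replicate 4 (adjusted p = 0.763). Il4ra had 89.9, 85.9, 129, 59.9 and 98.0 CPM, from below to far above the kidneys given PBS, and its log2 fold change was 0.13 (interval -0.23 to 0.50), 0.25 without replicate 4 (adjusted p = 0.763), -0.01 without replicate 3 (adjusted p = 0.987) and 0.11 without both. Tnfrsf1b had 69.9, 67.9, 74.0, 17.8 and 68.3 CPM. Replicate 4 was far below and the other 4 were above all CD5L KO PBS kidneys, and the log2 fold change went from -0.02 (SE 0.32) to 0.22 without that kidney (adjusted p = 0.763). Tnfrsf11a had 15.3, 11.03, 11.6, 6.59 and 11.6 CPM (log2 fold change -0.06, interval -0.48 to 0.35, 0.07 without replicate 4, -0.20 without replicate 1, and 0.01 without replicate 1 of the kidneys given PBS). Tnfsf8 had 8.41, 10.04, 5.76, 3.15 and 6.64 CPM (0.37, interval -0.21 to 0.95, 0.55 without replicate 4 and 0.19 without replicate 2).

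The abundant receptors and Il34 varied more in this group than in the others. Tnfrsf12a had 151, 107, 260.3, 125 and 154 CPM, Tnfrsf1a 189, 149, 271, 133 and 151 CPM, and Il34 121, 101, 173, 63.7 and 133 CPM. In each the highest value was that of replicate 3. Tnfrsf21 had 236, 217, 364, 469 and 299 CPM, highest in replicate 4. None of these was called against CD5L KO PBS kidneys (adjusted p from 0.897 to 0.996). Il11ra1 had 57.5, 61.9, 91.5, 105 and 55.5 CPM, also highest in replicate 4, and Il13ra1 had 131, 118, 70.3, 104 and 119 CPM, lowest in replicate 3. The plot of named members by kidney shows both kidneys apart from the rest.

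By family, the counts are given with and without replicate 4. Of 6 tested genes of the gp130 type, 6 were higher with rCD5L (median log2 fold change 0.16), and 4 of 6 without replicate 4 (median 0.20). Of 8 genes of the TRAIL and RANKL type, 7 were lower (median -0.19), 5 without replicate 4 and 3 without replicates 3 and 4. Of 6 genes of lymphocyte costimulation, 5 were lower (median -0.16), and 3 without replicate 4 (median 0.01). Of 7 genes of the IL-1 type, 5 were lower both with replicate 4 (median -0.23) and without it (median -0.07), and 3 without replicates 3 and 4. Of 11 genes of the common gamma chain type, 6 were higher (median 0.05), and 8 without replicate 4 (median 0.07). None of these was called in any of the 3 fits. Among the partner genes, 12 of 16 JAK, STAT and SOCS genes were higher with and without replicate 4 (medians 0.08 and 0.15), and none was called.

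Markers of other cells are given for the same comparison, and none of them was called in any of the 3 fits. Urothelium markers were lower with rCD5L for 6 of 6 genes with all kidneys, without replicate 4 and without replicates 3 and 4 (medians -0.50, -0.42 and -0.27), with sums of 103 to 219 CPM against 186 to 315 CPM. Proximal tubule markers were higher for 8 of 8 genes (median 1.29), for 7 of 8 without replicate 4 (median 0.07) and for 2 of 8 without replicates 3 and 4 (median -0.18). Collecting duct markers were higher for 6, 5 and 3 of 6 genes in these fits, and dendritic cell markers were lower for 6, 3 and 3 of 7 genes. T cell markers were lower for 9 of 14 genes with all kidneys, but higher for 11 of 14 without replicate 4 and for 12 of 14 without replicates 3 and 4 (medians -0.05, 0.17 and 0.22). Macrophage markers were higher for 3, 6 and 10 of 10 genes in the 3 fits. The 4 tested epididymis markers, a check for tissue outside the kidney, were higher for 3 genes in each fit, with sums of 18.7 to 44.0 CPM against 7.64 to 17.6 CPM. The part of these markers in the values of the members was not tested.

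**Figure D4:**
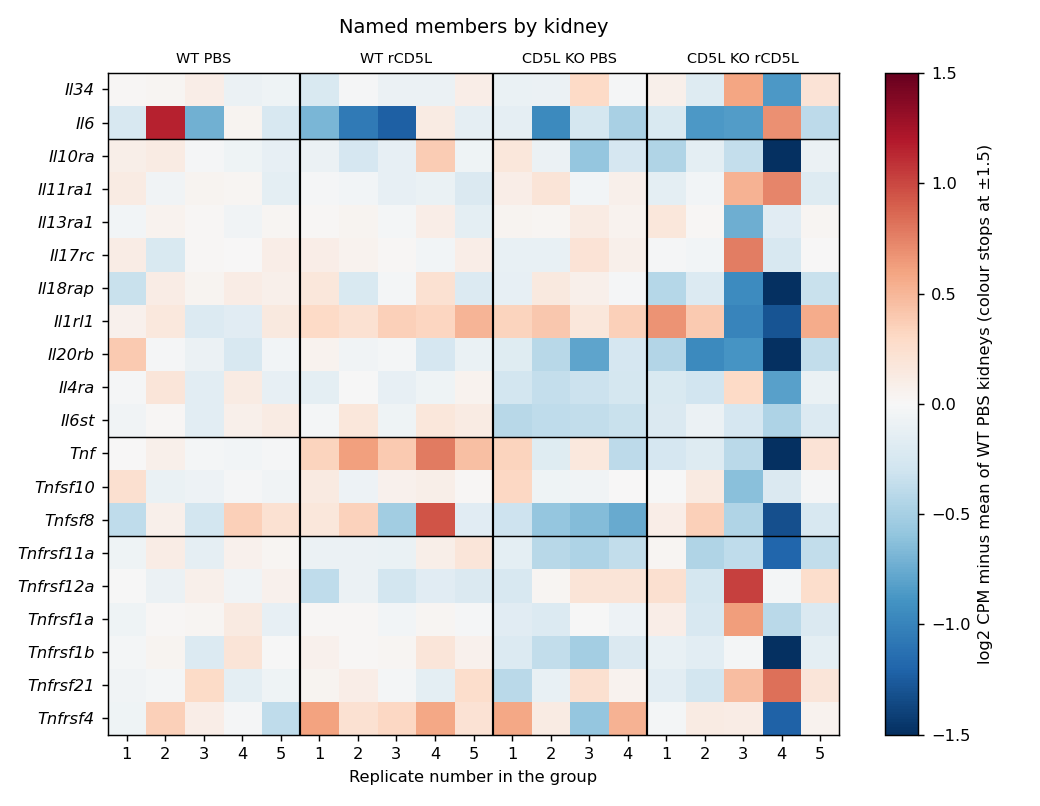
Log2 CPM of the 20 named members in each of the 19 kidneys, minus the mean of the WT PBS kidneys for that gene, with colours stopping at a difference of 1.5. Columns are kidneys by group and replicate number, rows are members ordered by role. Il6st is lower in all CD5L KO kidneys, Tnf is higher in all WT rCD5L kidneys, and replicate 4 of the CD5L KO rCD5L mice departs most from the rest.

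With rCD5L given to both genotypes, no member was called in CD5L KO against WT kidneys, of 74 tested, nor was any of 17360 genes (0.0%). At an unadjusted p under 0.05, 11 members passed (14.9%, against 17.8% of all genes). They were 9 lower members (12.2%, against 6.8%) and 2 higher ones (2.7%, against 11.0%), Tnfrsf12a and Il22ra1. DESeq2 called no member, where it called 0.387% of all genes. The median log2 fold change was -0.24 (-0.01 over all genes) with 20 of 74 higher (27.0%, against 48.9%), and -0.11 with 23 higher without replicate 4. When all 19 kidneys shared 1 fit, 3 members were called (Il31ra, Il6st and Tnf, 3.9%, against 7.0% of all genes), and without replicate 4 in that fit Tnfrsf12a, which was higher, was called too (5.26%, against 3.69%). By role, 26 of 31 interleukin receptors were lower (median -0.28), and 25 without replicate 4 (median -0.14). Of 12 TNF superfamily ligands 10 were lower, and 8 without replicate 4 (medians -0.28 and -0.15), and of 15 TNF superfamily receptors 9 were lower in both fits (medians -0.28 and -0.12). Of 11 interleukin ligands 6 were higher, and 5 without replicate 4 (medians 0.09 and -0.02). Of 16 JAK, STAT and SOCS genes 14 were lower in both fits (medians -0.14 and -0.11), with none called. Of partner cytokines and receptor subunits 13 of 14 were lower, and 12 of 15 without replicate 4 (medians -0.39 and -0.20), with none called.

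Markers of several cell types moved with this comparison. Lower in CD5L KO kidneys were 10 of 10 macrophage, 7 of 7 dendritic cell, 13 of 14 T cell and 8 of 8 fibroblast and myofibroblast markers, and higher were 8 of 8 proximal tubule markers. Without replicate 4, these were 5 of 10, 6 of 7, 10 of 14, 7 of 8 and 6 of 8. Podocyte markers were lower for 5 of 5 genes with and without replicate 4 (medians -0.38 and -0.34), with sums of 380 to 624.9 CPM, or 512 to 624.9 CPM without that kidney, against 605 to 697 CPM. Urothelium markers were higher for 6 of 6 genes in both fits (medians 0.46 and 0.54), as were 6 of 6 collecting duct markers (medians 0.39 and 0.22). Endothelial markers were lower for 5 of 6 genes, and for 6 of 6 without replicate 4 (medians -0.20 in both). None of these markers was called in either fit. The proximal tubule sum was 13916 CPM in replicate 4 and 1361 to 2329 CPM in the other 4 kidneys of the group, against 1005 to 1552 CPM in WT rCD5L kidneys, and the part of these markers in the differences was not tested. Without replicates 3 and 4, the 2-group fit called Tnfrsf1b alone of the 75 members tested (1.33%, against 3.58% of all genes). Markers of other cells are not given for that fit, and their part in this call was not tested.

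There were 5 members, the same with and without replicate 4, whose kidneys did not overlap, all lower in CD5L KO kidneys (6.76%, against 7.38% of all genes, of which 3.09% lower and 4.29% higher). Without replicate 4, lower members without overlap were 6.76% of those tested, against 3.52% of all genes. Il6st had a log2 fold change of -0.32 (SE 0.11, adjusted p = 0.259), and of -0.28 without replicate 4 (adjusted p = 0.190). Tnf had 2.40, 2.50, 2.17, 0.953 and 3.30 CPM in CD5L KO rCD5L kidneys, all below the 5 WT rCD5L kidneys. Its log2 fold change was -0.86 (SE 0.26, adjusted p = 0.259), -0.68 without replicate 4 (adjusted p = 0.174) and -0.60 without replicates 3 and 4 (adjusted p = 0.0927). Il20rb, a receptor chain for IL-20 and IL-24, had 3.92, 2.76, 2.88, 1.03 and 4.13 CPM against 5.54, 5.14, 5.21, 4.47 and 4.99 CPM (log2 fold change -0.78, SE 0.28, adjusted p = 0.259, and -0.58 without replicate 4, adjusted p = 0.188). Tnfrsf4 (OX40, a T cell receptor) had 2.67, 2.97, 2.93, 1.17 and 2.81 CPM against 4.13, 3.20, 3.38, 4.07 and 3.15 CPM (-0.51, SE 0.24, adjusted p = 0.285, and -0.35 without replicate 4, adjusted p = 0.336). Tnfrsf1b, with 79.0, 76.7, 77.6, 85.6 and 79.5 CPM in WT rCD5L kidneys, had a log2 fold change of -0.43 (SE 0.28, adjusted p = 0.420), which was -0.20 without replicate 4 (adjusted p = 0.246).

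Whether rCD5L acted differently in the 2 genotypes was tested by the interaction term over all 19 kidneys. No member was called of 77, nor was any of 18454 genes (0.0%), and DESeq2 called none. At an unadjusted p under 0.05, 5 members passed (6.49%, against 6.25% of all genes). Lower terms were found for Tnf, Il18rap, Il31ra (the IL-31 receptor) and Tnfrsf19 (TROY), 5.19% of members against 1.84% of all genes, and a higher term for Il17d (1.3%, against 4.41%). Of the 77 members, 26 had a term above 0 (33.8%, against 53.0% of all genes). Without replicate 4, 35 of 76 had a term above 0, and 9 (11.8%, against 4.97% of all genes) had an unadjusted p under 0.05. Without replicates 3 and 4, these were 39 of 78 and 5 (6.41%, against 4.96%), and no member was called in either fit. Tnf had the smallest p (log2 difference -0.84, SE 0.31, unadjusted p = 0.0148, adjusted p = 0.731), from log2 fold changes of 0.53 in WT and -0.32 in CD5L KO mice, neither of which was called. The value in CD5L KO mice was -0.14 without replicate 4 and -0.07 without replicates 3 and 4. The term was -0.68 without replicate 4 (adjusted p = 0.853). Il6st, which fell with lack of CD5L, had a term of 0.08 (interval -0.16 to 0.31). Among markers of other cells, T cell markers had terms below 0 for 14 of 14 genes (median -0.47), and for 12 of 14 without replicate 4. Proximal tubule markers had terms above 0 for 8 of 8 genes, and for 7 of 8 without replicate 4. None was called, and the part of these markers in the terms of the members was not tested. The interaction shares groups with the comparisons above, so it is not independent of them.

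**Figure D5:**
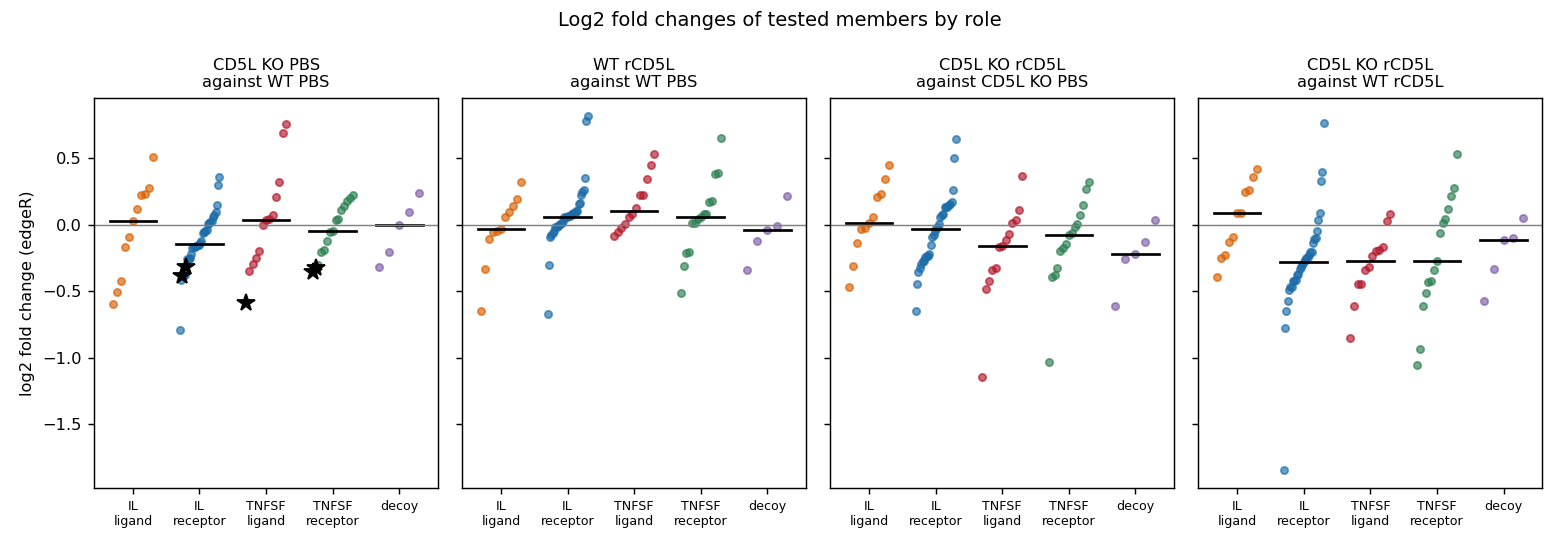
Log2 fold changes (edgeR) of the tested members in the 4 pairwise comparisons, by role. Each point is a member, the bar is the median of the role and stars mark the 5 members with an adjusted p under 0.05. The stars occur only in CD5L KO against WT kidneys given PBS and lie below 0.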

How the data were processed

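RNA-seq of 19 obstructed kidneys was used. The authors trimmed paired-end reads of random-primed libraries (Trimmomatic), mapped them with HISAT2 on GRCm38 and deposited raw counts per gene from featureCounts. They also deposited FPKM values per gene, scaled by gene length and library size, which were used for levels between genes and in 2 alternatives. The strand setting, the versions and the treatment of reads matching several places are not given in the sources used here, so overlapping and near-identical genes are uncertain. Groups and replicate numbers came from the sample labels. All 36 same-group pairs differed beyond sampling noise (chi-square over its degrees of freedom at least 6.63), and each kidney counted as 1 replicate. P-values set the difference between groups against the spread between kidneys.

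Counts were tested with edgeR 4.0.16 in R 4.3.3 (TMM, filterByExpr with a minimum count of 10, glmQLFit, glmQLFTest) on the 2 groups compared, or on all 19 kidneys for the interaction. Benjamini-Hochberg adjustment ran over all genes tested, and genes with an adjusted p under 0.05 were called. The standard error is the log2 fold change over the square root of F, and intervals run 2 standard errors to each side. CPM by kidney used TMM factors over all kidneys. Limits for a count of 0 (3 counts) cover counting error only. Alternatives were DESeq2 1.42.0, RLE factors, 3 other filters, a fit of all kidneys together, a block for the replicate number, a gene length offset, log2(FPKM + 1) and log2(FPKM + 0.1) with limma 3.58.1, and leaving out each kidney. Fits without replicate 4, or replicates 3 and 4, of the CD5L KO rCD5L kidneys were added after seeing the data. The 2-group tests were tried on simulated data in which no kidney stood apart. Promoters came from RefSeq (GRCm38.p6).

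Named members were those called, the 12 highest by median FPKM, per comparison the 5 largest changes without overlap, Tnf, Il6, Il34 and Tnfrsf21, and members in counts of 5 or fewer. Members and lists were chosen with earlier results of these data known.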

Additional observations from a re-analysis of the deposited data

Results flagged for a closer look

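A kidney was looked at again where its distance to the nearest kidney of its group, over the range of the group, passed Dixon's 95% critical value, which chance passes in about 1 of 20 groups. Over 84 groups, 11 passed, of which 4 were replicate 4 of the CD5L KO rCD5L kidneys. That kidney had a member share of 0.131% of its counts (0.217% to 0.226% in the others of its group), 17.8 CPM of Tnfrsf1b (67.9 to 74.0), 1.17 CPM of Tnfrsf4 (2.67 to 2.97) and 1.76 CPM of Il6 (0.603 to 0.935). Replicate 3 of the same group had 67.8 CPM of Il17rc (33.7 to 39.9).

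Among WT PBS kidneys, replicate 1 had 8.45 CPM of Il18rap (11.0 to 11.5 in the others) and 90.6 CPM of Tnfsf10 (71.7 to 75.9), replicate 2 had 2.44 CPM of Il6 (0.667 to 1.13) and replicate 3 had 321 CPM of Tnfrsf21 (238 to 259). Replicate 1 of the CD5L KO PBS kidneys had 94.9 CPM of Tnfsf10 (73.7 to 76.8). Replicate 4 of the WT rCD5L kidneys had 66.9 CPM of Il10ra (43.1 to 48.9).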

How the results depend on the processing

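In CD5L KO against WT kidneys given PBS, 5 members were called (6.58%, against 10.5% of all genes). There were 0 with all kidneys in 1 fit (0.065% of all genes), 2 with all kidneys but replicate 4 of the CD5L KO rCD5L mice in 1 fit (4.03%, chosen after seeing the data), 3 with a gene length offset (7.42%), and 1 to 6 when 1 kidney was left out (5.81% to 11.8%), with 1 without CD5L KO PBS replicate 2, 2 without CD5L KO PBS replicate 3 or WT PBS replicate 2 or 4, and 3 without CD5L KO PBS replicate 4 or WT PBS replicate 5. The members called were all lower, except Ltb without WT PBS replicate 1, Il7 without WT PBS replicate 5 and Il5ra in DESeq2. Il6st was called without each kidney in turn (adjusted p from 0.00456 to 0.0206). Tnfsf8 lost its call in 7 of 9, Tnfrsf11a in 6 of 9, Tnfrsf1b in 5 of 9 and Il4ra in 1 of 9 of these fits. Both limma fits on FPKM called 4 members (5.26%, against 8.87% and 8.86% of all genes), without Tnfsf8. The fit with no filter called 4 (3.74%, against 5.03%), without Tnfrsf11a. With the gene length offset, Tnfsf8 and Tnfrsf11a were lost. With the replicate number as a block, 6 members were called here (7.89%, against 12.1% of all genes) and 0 in the other 3 pairwise comparisons and the interaction. Of these 6, 3 were among the 5 (Il6st, Il4ra and Tnfrsf1b), Tnfrsf11a (adjusted p = 0.0563) and Tnfsf8 (adjusted p = 0.108) were lost, and Il2rg, Il6ra and Tnfsf13b, named after their values were seen, were gained. Same-numbered kidneys of different groups (27 pairs) had correlations from -0.181 to 0.181, 5 of them over 0.1. Pairs of different number were not set beside them, so whether the number carries an order or a batch was not tested.

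In WT mice, DESeq2 called 1 member with rCD5L against PBS (3.82% of all genes), where edgeR called 0. In CD5L KO against WT kidneys given rCD5L, 3 members were called with all kidneys in 1 fit (3.9%, against 7.0% of all genes), 4 with all kidneys but replicate 4 of the CD5L KO rCD5L mice (5.26%, against 3.69%), and 1 with its replicates 3 and 4 left out (1.33%, against 3.58%, both chosen after seeing the data). The cause of these changes was not tested. The values followed under the alternatives were the calls, those of named members without overlap in the comparison concerned, and Tnf in the interaction. None of these changed sign under any alternative run. Other values of named members did, such as that of Tnfrsf1b with rCD5L in CD5L KO mice when replicate 4 was left out. Of the values followed under the alternatives, 297 kept their side of the threshold, 34 lost it and 6 gained it. All 34 losses were of members called in CD5L KO against WT kidneys given PBS. Most of the 297 were of results not called in the main fit.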
